A study of Mus musculus with 6 samples.

Results

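A set of 9 genes that mark neurons of the upper cortical layers was followed in RNA-seq libraries made from mouse medial prefrontal cortex, which lies at the front of the cerebral cortex. They were chosen by symbol from the deposited gene tables, and 9 of 9 were found among 19943 genes in all. Lamp5, Rasgrf2, Otof, Calb1, Pou3f2 and Lmo4 were treated as layer 2/3 genes, Cux1 and Cux2 as genes of layers 2 to 4, and Rorb as the layer 4 gene. Layer 4 thus rested on Rorb alone. The 16 other upper-layer genes set beside the 9 further below were not told apart by layer. The 3 isolated libraries came from C57BL/6 mice that spent 3 weeks in social isolation after weaning, and the 3 control libraries from C57BL/6 control mice. The labels give an age of 6 weeks in both groups, while the text on the design gives 7 weeks. They name no transgene or drug, and they do not say whether each library is a separate animal, so a p-value here reflects only how far these libraries spread, in part perhaps for technical reasons.

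The cerebral cortex is built in layers that are made in sequence during development, deep layers before upper ones. Neurons of layers 2 and 3 send axons mainly to other cortical areas, through the corpus callosum among other routes, and layer 4 is the main target of thalamic axons in sensory cortex. The medial prefrontal cortex of the mouse is agranular, meaning that it has no distinct layer 4, although cells that express layer 4 genes are known there. Several of the markers are not exclusive: Calb1 and Lamp5 are also expressed in classes of interneurons, Calb1 in projection neurons of the striatum, and Rorb in astrocytes. In such bulk tissue, fewer cells of a type and less RNA per cell cannot be told apart.

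RefSeq promoter windows, from 250 bases before to 50 bases after a transcription start, were at hand for 7 of the 9 genes, in 12 entries on the build GRCm38.p6. The windows of Cux1 and of the first of the 2 Rorb starts are shown because these genes had all isolated libraries below all control libraries, and that of Cux2 because it alone held a searched motif. Each is written 5′ to 3′ on the strand of the gene, with a motif match in capitals.
Rorb, first start, chr19:19111147-19111446, minus strand: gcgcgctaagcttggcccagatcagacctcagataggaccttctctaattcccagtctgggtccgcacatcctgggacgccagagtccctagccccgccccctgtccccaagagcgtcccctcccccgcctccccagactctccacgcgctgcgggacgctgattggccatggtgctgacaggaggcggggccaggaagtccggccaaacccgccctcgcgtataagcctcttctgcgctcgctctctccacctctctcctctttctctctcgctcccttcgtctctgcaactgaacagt
Cux1, chr5:136565932-136566231, minus strand: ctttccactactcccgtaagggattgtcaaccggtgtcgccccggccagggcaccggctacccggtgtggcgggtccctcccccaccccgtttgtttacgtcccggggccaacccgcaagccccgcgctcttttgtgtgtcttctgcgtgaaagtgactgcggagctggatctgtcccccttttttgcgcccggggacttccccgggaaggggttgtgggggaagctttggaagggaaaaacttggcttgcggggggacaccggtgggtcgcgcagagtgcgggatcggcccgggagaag
Cux2, second start, chr5:122047776-122048075, minus strand: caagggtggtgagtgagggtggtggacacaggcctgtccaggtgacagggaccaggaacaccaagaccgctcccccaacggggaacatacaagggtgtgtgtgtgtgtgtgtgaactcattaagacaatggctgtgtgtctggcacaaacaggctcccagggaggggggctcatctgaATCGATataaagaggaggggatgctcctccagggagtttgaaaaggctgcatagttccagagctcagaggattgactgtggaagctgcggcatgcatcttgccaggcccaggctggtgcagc
The letters searched on both strands were AGGTCA for ROR nuclear receptors, ATCGAT and ATCAAT for CUX proteins, and ATGCAAAT for POU proteins. ATCGAT was found in the Cux2 window and no searched motif in the other 11 entries. Among 32851 RefSeq promoter windows of this length, AGGTCA was present in 16.3%, ATCGAT in 0.925%, ATCAAT in 7.54% and ATGCAAAT in 1.74%. GC content ran from 41.0% to 81.3% in the 12 entries, against a median of 52.7% over all windows.

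The libraries were even in depth, at 18390902 to 18606573 expected counts in the isolated and 18226448 to 18544306 in the control libraries. They were uneven in RNA of projection neurons of the striatum, a region next to the frontal cortex. Drd2, the D2 dopamine receptor of those neurons, stood at 6.78, 6.36 and 50.2 CPM (read counts scaled to library size with TMM factors) in isolated 1, 2 and 3, against 19.1, 68.2 and 0.605 CPM in control 1, 2 and 3. Ppp1r1b, which encodes DARPP-32, gave 152, 159 and 622 CPM in the isolated libraries and 301, 834 and 108 CPM in the control libraries. Isolated 3 and control 2 were the highest for both genes, so each group held a library rich in striatal RNA. A list of 8 genes of cortical excitatory neurons was all detected and summed to 7420 to 8815 CPM in isolated and 7449 to 9155 CPM in control libraries. Camk2a was the largest part of the sum, at 3813 to 4664 CPM in isolated and 4014 to 4991 CPM in control libraries. Detection of these genes does not tell how much of a library is cortex, so the cortical label was not tested.

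All 9 upper-layer genes were well above the count filter, with 408 to 5583 expected counts per gene and library. Levels between genes are compared as FPKM, which is per length of transcript. Over the 6 libraries Lmo4 had the highest mean, at 140.5 FPKM (range 115.9 to 164.6), followed by Lamp5 at 105.7 FPKM (75.3 to 134.5). A middle group held Calb1 at 33.7 FPKM (30.5 to 41.3), Rasgrf2 at 33.6 FPKM (25.1 to 39.7), Cux1 at 25.4 FPKM (23.0 to 30.4) and Cux2 at 24.5 FPKM (18.4 to 29.4). The lowest were Pou3f2 at 7.24 FPKM (6.04 to 9.15), Rorb at 5.15 FPKM (3.65 to 6.68) and Otof at 4.09 FPKM (3.09 to 6.31). Neighbours in this order had overlapping ranges except at the steps from Lamp5 to Calb1 and from Cux2 to Pou3f2.

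Between the groups, 7 of the 9 genes had a lower mean in isolated libraries and 2 (Lamp5 and Lmo4) a higher one. A lower mean was found for 50.8% of all 15169 genes tested. The median log2 difference of the 9 genes was -0.17, beside -0.0018 over all genes, and it ran from -0.26 without isolated 1 to -0.03 without isolated 3. The summed level of the 9 genes was 937 to 1258 CPM in isolated and 1061 to 1275 CPM in control libraries, with overlap. No member passed the threshold of an adjusted p under 0.05 with edgeR's quasi-likelihood test, and across all genes 0% passed as higher and 0% as lower, with 535 genes at an unadjusted p under 0.05. DESeq2 called 1 gene, Fkbp5, which is no member, and limma-voom called 0. A total of 3 members, Rorb, Cux1 and Calb1, had an unadjusted p under 0.05, all with lower means in isolated libraries, where 2% of all genes were lower and 1.52% higher by that measure, 3.53% in either direction. In 2 of the 9, Rorb and Cux1, all isolated libraries lay below all control libraries, beside 4.73% of all genes, and in 0 of the 9 did all isolated libraries lie above, beside 4.12%. The count of 3 was 1 without isolated 2 and 1 when libraries were scaled to the cortical excitatory list.

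**Figure D1:**
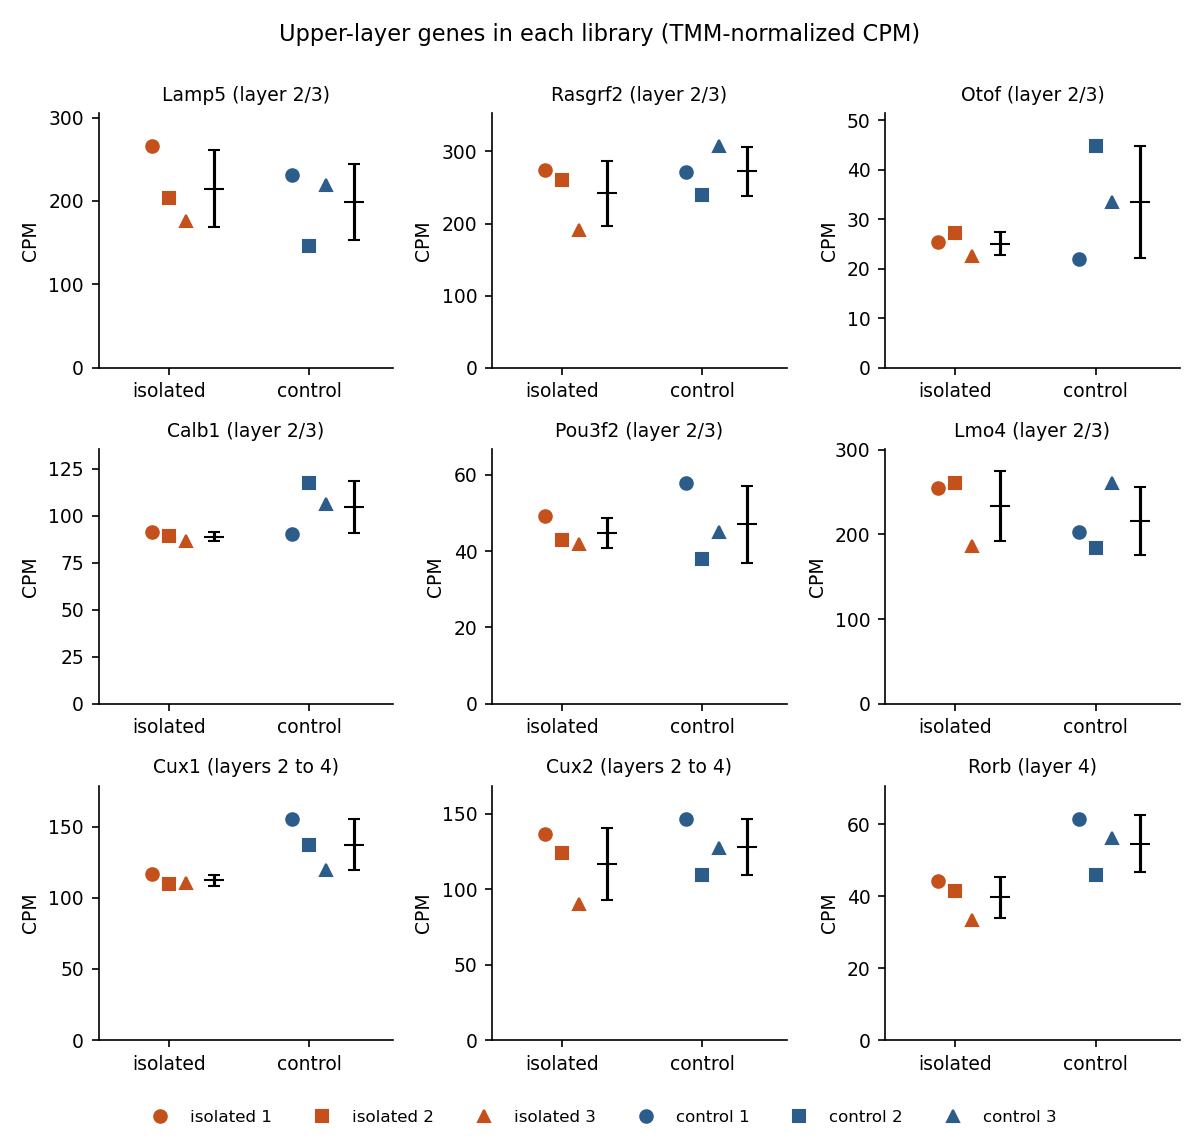
Level of each of the 9 genes in CPM (TMM-scaled, linear axes starting at 0), with 1 point per library, isolated libraries left of control libraries, and with the mean ± SD of each group as a horizontal tick and bar beside its points. For Rorb and Cux1 the 3 isolated points lie below the 3 control points, and for the other 7 genes the groups overlap.

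The layer 4 gene Rorb encodes an orphan nuclear receptor of the ROR family that takes part in specifying layer 4 neurons and in grouping them into barrels in mouse somatosensory cortex. It is Entrez gene 225998, on chromosome 19 from 18930609 to 19111196, with 3 transcripts listed. It was measured at 44.2, 41.3 and 33.4 CPM in isolated 1, 2 and 3 and at 61.5, 46.0 and 56.3 CPM in control 1, 2 and 3. The isolated libraries were all lower than the lowest control library, control 2, and isolated 3 was the lowest of all. The means were 39.7 ± 5.61 CPM in isolated and 54.6 ± 7.89 CPM in control libraries (SD, n = 3 each). This is a log2 difference of -0.46 (SE 0.14, 95% interval -0.78 to -0.15), with an unadjusted p of 0.0101 and an adjusted p of 0.999 by edgeR. In all 17 alternative settings its difference was negative, from -0.57 to -0.35, with an unadjusted p between 0.000407 and 0.0408 and an adjusted p of 0.619 or more by the tool of each setting. The 8 astrocyte markers summed to 3635 to 3811 CPM in isolated and 3925 to 4188 CPM in control libraries, ranges that did not overlap. Most of this sum came from Slc1a2, at 2860, 2878 and 2676 CPM in isolated 1, 2 and 3. In control 1, 2 and 3 it gave 2970.5, 3013 and 3203 CPM. Of the 8 genes, 2 had all isolated libraries below all controls, beside 4.73% of all genes, and 6 overlapped. The part of these markers in the Rorb difference was not tested. Rorb was the only member treated as a layer 4 gene, so its difference is not a result for the layer.

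Cux1 and Cux2 encode related homeodomain transcription factors that control dendrite branching and spine formation in upper-layer neurons. Cux1 is Entrez gene 13047, on chromosome 5 from 136248135 to 136567590. Its level was 117, 109.5 and 110.4 CPM in isolated 1, 2 and 3, against 156, 137 and 119.6 CPM in control 1, 2 and 3. The isolated libraries were close to one another and all lower than the controls, of which control 3 was the nearest. They averaged 112 ± 3.998 CPM, and the controls 137 ± 17.96 CPM (SD, n = 3 each). The log2 difference was -0.29 (SE 0.09, 95% interval -0.51 to -0.07), with an unadjusted p of 0.0153 and an adjusted p of 0.999 by edgeR. It was -0.19 without control 1, and its unadjusted p was 0.0509 without isolated 2. A gene on the opposite strand, Gm16599, overlaps 1.97% of its exon bases.

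For Cux1 the result depended on the unit. Its FPKM values were 24.3, 23.6 and 23.0 in isolated 1, 2 and 3 and 30.4, 27.8 and 23.2 in control 1, 2 and 3. Control 3 was so close to the isolated libraries that the groups overlapped on this scale. The difference in log2(FPKM + 1) was -0.18, with an unadjusted p of 0.0876 and an adjusted p of 0.9998 by limma.

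FPKM scales each count by transcript length. A length weighted over the transcripts of a gene is deposited beside each FPKM value, and it moves with the mix of isoforms estimated for that gene. The length of Cux1 was 4737, 4614 and 4830 bases in isolated 1, 2 and 3 and 5073, 4945 and 5078 bases in control 1, 2 and 3. Every isolated library had a shorter mean transcript than every control library. The means were 4727.0 ± 108.5 bases in isolated and 5031.7 ± 75.4 bases in control libraries (SD, n = 3 each), a difference of -304.7 bases or -6.06%. The smallest p that an exact two-sided permutation test of 3 against 3 libraries can give is 0.1. Of 4394 genes whose length varied, 5.23% had all isolated libraries below all controls in the same way and 4.32% had them above. This measure was looked at after the values were seen.

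Cux1 is a compound locus with 7 RefSeq transcripts listed in the tables. Those matched to the GENCODE annotation code either for the homeodomain protein, with coding sequences of 4278 to 4527 bases, or for the shorter CASP, a membrane protein of the Golgi apparatus that lacks the homeodomain, with 2028 to 2034 bases. The counts deposited are per gene, so the level of each product was not measured. The weighted lengths of Cux2, Rorb, Otof and Lmo4, the other members with more than 1 transcript, overlapped between the groups.

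**Figure D2:**
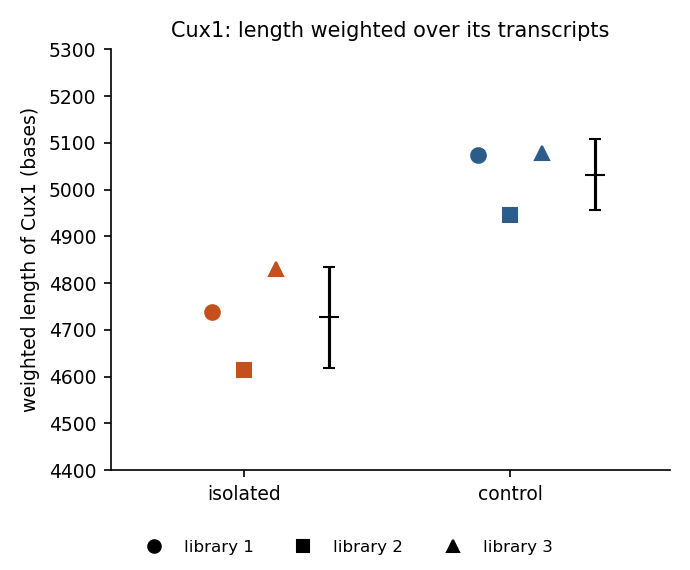
Weighted transcript length of Cux1 in bases (axis not starting at 0) in each library, isolated left of control, with the mean ± SD of each group beside its points. The isolated libraries lie between 4614 and 4830 bases and the controls between 4945 and 5078 bases.

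Cux2 is Entrez gene 13048, on chromosome 5 from 121857962 to 122050415, with 2 transcripts listed. It gave 136, 124 and 90.5 CPM in isolated 1, 2 and 3 and 147, 109.6 and 127 CPM in control 1, 2 and 3. Isolated 3 was the lowest library and control 1 the highest, and the groups overlapped. On the log2 scale the difference was -0.13 (SE 0.16, 95% interval -0.51 to 0.25), with an unadjusted p of 0.444 and an adjusted p of 0.999 by edgeR. Without isolated 3 it was 0.02.

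Among the layer 2/3 genes, 4 of 6 had lower means in isolated libraries, beside 50.8% of all genes, with a median log2 difference of -0.12. Calb1 encodes the calcium-buffering protein calbindin and is Entrez gene 12307, on chromosome 4 from 15881264 to 15906709. Calb1 was measured at 91.3, 89.1 and 86.4 CPM in isolated 1, 2 and 3 and at 90.3, 118 and 106 CPM in control 1, 2 and 3. The isolated libraries were nearly level, and the groups overlapped only through control 1, which lay just under isolated 1. Means were 88.9 ± 2.43 CPM in isolated and 105 ± 13.7 CPM in control libraries (SD, n = 3 each). The log2 difference was -0.24 (SE 0.09, 95% interval -0.45 to -0.02), with an unadjusted p of 0.0366 and an adjusted p of 0.999 by edgeR. It was -0.14 without control 2, the library with the most striatal RNA, and -0.12 without both control 2 and isolated 3. The unadjusted p was under 0.05 in 9 of 17 alternative settings. Interneuron markers, of which 12 of 12 were detected, summed to 998 to 1231 CPM in isolated and 995 to 1259 CPM in control libraries. In each group this sum was highest in the library richest in Drd2, isolated 3 and control 2. Its largest part, Gad1, was highest in the same libraries, at 397 CPM in isolated 3 and 391 CPM in control 2. The part of striatal RNA in this sum was not tested.

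Otof encodes otoferlin, the calcium sensor of transmitter release in inner hair cells of the ear, and serves as a marker of layer 2/3 neurons in mouse cortex. It is Entrez gene 83762, on chromosome 5 from 30367066 to 30462730. Its level was 25.3, 27.2 and 22.5 CPM in isolated 1, 2 and 3 and 22.1, 44.7 and 33.4 CPM in control 1, 2 and 3. The lowest and the highest library were both controls, and the isolated ones lay between. Their log2 difference was -0.42 (SE 0.23, 95% interval -0.95 to 0.11), with an unadjusted p of 0.107 and an adjusted p of 0.999 by edgeR. Control 2 carried much of it, since the value was -0.15 without control 2 and -0.64 without control 1 (unadjusted p = 0.00395, adjusted p = 0.934 by edgeR).

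Rasgrf2 encodes a calcium-activated exchange factor for Ras and Rac and is Entrez gene 19418, on chromosome 13 from 91880407 to 92131828. Its 6 values were 275, 260.1 and 190.3 CPM in isolated 1, 2 and 3 and 272, 239 and 307 CPM in control 1, 2 and 3. Isolated 3 stood apart as the lowest, and the other libraries of the groups were interleaved. A log2 difference of -0.17 (SE 0.15, 95% interval -0.52 to 0.17) was obtained, with an unadjusted p of 0.274 and an adjusted p of 0.999 by edgeR, and it was -0.03 without isolated 3.

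Pou3f2 encodes the POU-domain transcription factor BRN2, which with its relatives drives the production and migration of upper-layer neurons. It is Entrez gene 18992, on chromosome 4 from 22482095 to 22488366. It was measured at 49.2, 43.0 and 41.8 CPM in isolated 1, 2 and 3, against 57.9, 37.9 and 45.1 CPM in control 1, 2 and 3. Controls held both extremes. The log2 difference was -0.07 (SE 0.15, 95% interval -0.42 to 0.27), with an unadjusted p of 0.639 and an adjusted p of 0.999 by edgeR, and it was 0.11 without control 1. The expected counts of Pou3f2 and Rorb were not exactly whole numbers in any library and that of Cux1 in 1 of 6, so some of their reads were shared with other genes.

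Lamp5 encodes a membrane protein of neuronal endosomes related to the lysosomal LAMP proteins and is Entrez gene 76161, on chromosome 2 from 136052025 to 136069917. Its level was 265, 204 and 175 CPM in isolated 1, 2 and 3 and 231, 146 and 219.7 CPM in control 1, 2 and 3. The spread within each group was wide and the groups overlapped broadly, with means of 215 ± 46.0 CPM in isolated and 199 ± 46.1 CPM in control libraries (SD, n = 3 each). The log2 difference was 0.11 (SE 0.20, 95% interval -0.36 to 0.58), with an unadjusted p of 0.594 and an adjusted p of 0.999 by edgeR. It was -0.07 without isolated 1 and -0.07 without control 2.

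Lmo4 encodes a LIM-only cofactor that binds the adaptor protein LDB1 and modulates transcription in cortical neurons. It is Entrez gene 16911, on chromosome 3 from 144188530 to 144205255. It stood at 254, 261 and 186 CPM in isolated 1, 2 and 3 and at 203, 183 and 261 CPM in control 1, 2 and 3. In each group the lowest library was the one richest in Drd2, and the groups overlapped. The group difference was 0.12 in log2 (SE 0.16, 95% interval -0.27 to 0.50), with an unadjusted p of 0.499 and an adjusted p of 0.999 by edgeR. It ran from 0.01 without control 2 to 0.28 without control 3.

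**Figure D3:**
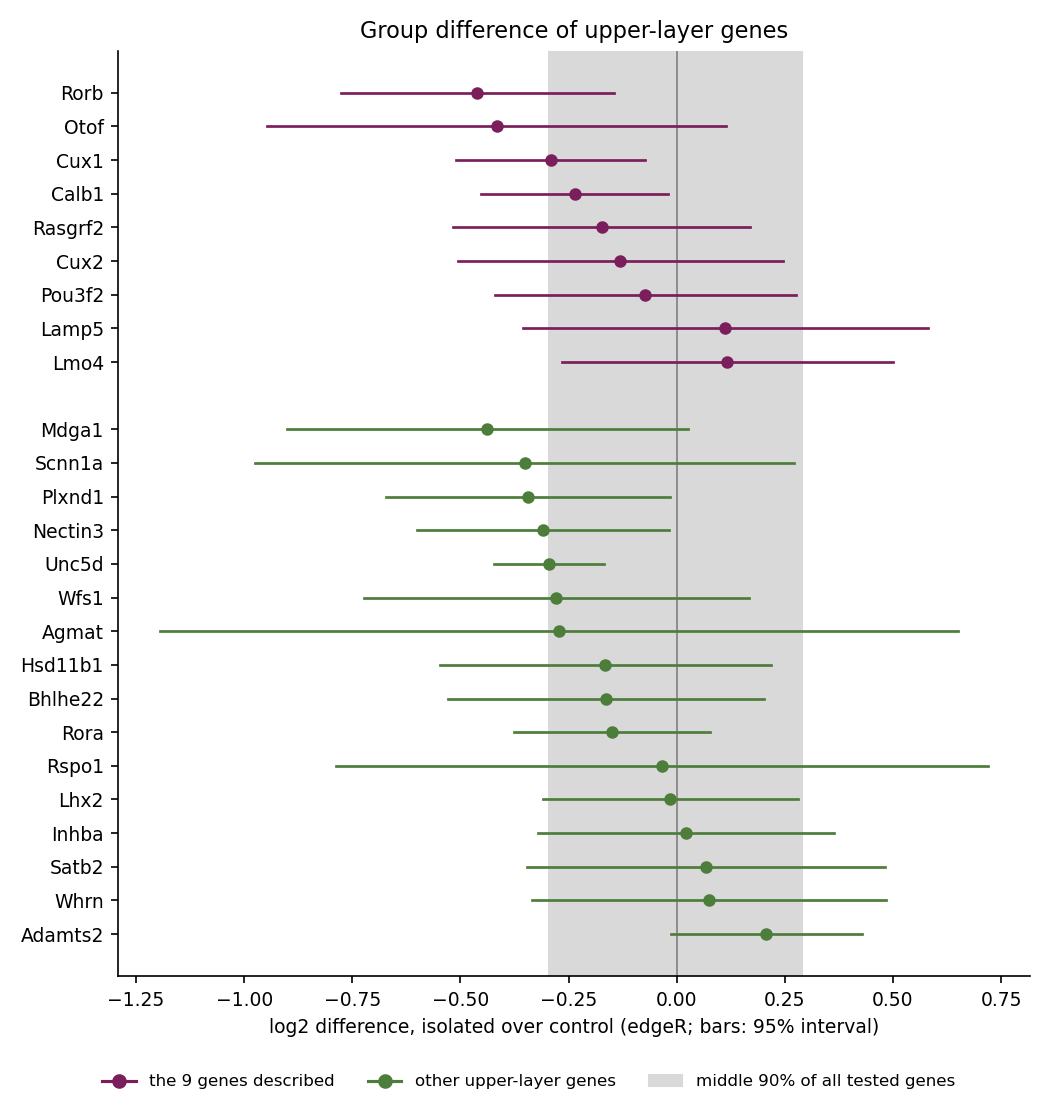
Log2 difference between isolated and control libraries (edgeR, points) with 95% intervals (bars) for the 9 genes described (upper block) and 16 other upper-layer genes (lower block), with a grey band for the middle 90% of all tested genes, from -0.295 to 0.289. Intervals of Rorb, Cux1 and Calb1 lie below 0, and those of the other 6 genes described span 0.

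The relation to striatal RNA was examined because the libraries differed so widely in Drd2. Isolated 3 was the lowest library for 4 members and control 2 for 3, so 7 of the 9 genes had their minimum in the libraries with the most Drd2, where 39.5% of all genes had theirs. Control 2 was also the highest for Otof and Calb1. The ratio of the highest to the lowest library ran from 1.36 for Calb1 to 2.03 for Otof. A slope on log2 Drd2 was fitted with edgeR beside the group term, in units of log2 change per doubling of Drd2. It was negative for 6 of the 9 members, beside 49.8% of all genes. The slopes of Lmo4, Rasgrf2 and Lamp5 had an unadjusted p under 0.05, all negative, where 7.32% of all genes fell and 8.85% rose by that measure.

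Lmo4 fell as Drd2 rose and was the one member past the threshold. Its slope was -0.10 (SE 0.02, 95% interval -0.14 to -0.07), with an adjusted p of 0.0273 by edgeR. Across all genes 0.343% fell and 1.34% rose with Drd2 by this test, on 15168 genes. Over the 6 libraries Pearson's r between Lmo4 and Drd2 was -0.90 (exact permutation p = 0.00972, adjusted over all genes 0.314), and Spearman's rho was -0.94 (exact permutation p = 0.0167, adjusted 0.320). By the exact permutation test of r, 0% of genes had an adjusted p under 0.05 and 12.2% an unadjusted p under 0.05. Without the 2 libraries farthest from the median of Drd2, control 2 and control 3, r was -0.98. The call rested on most of the libraries, since the adjusted p by edgeR was 0.110 without isolated 1, 0.120 without isolated 2, 0.0931 without isolated 3 and 0.0566 without control 3. It was 0.0524 without the group term. The adjusted p by edgeR stayed under 0.05 without control 1 (0.00816) and without control 2 (0.0288). With the striatal list in place of Drd2 it was 0.00482 by edgeR.

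Rasgrf2 had a slope of -0.08 (SE 0.02, 95% interval -0.13 to -0.03) and an adjusted p of 0.116 by edgeR. Its r was -0.79 (exact permutation p = 0.0667, adjusted 0.428) and its rho -0.77. It passed the threshold without control 1 (adjusted p = 0.0457), without control 3 (adjusted p = 0.0456) and with the striatal list in place of Drd2 (adjusted p = 0.0293), each by edgeR. Lamp5 had a slope of -0.09 (SE 0.04) and an adjusted p of 0.307, or 0.0381 without control 1, by edgeR.

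Rorb, Cux1 and Calb1, which had lower means in isolated libraries, did not pass for Drd2. The slope of Rorb was -0.05 (edgeR adjusted p = 0.407), and it ran from -0.15 without control 3 (edgeR adjusted p = 0.104) to -0.02 without control 2 (edgeR adjusted p = 0.756). With the striatal list in place of Drd2 it was -0.10 (edgeR adjusted p = 0.200). On Drd2, the slope of Cux1 was 0.03 (edgeR adjusted p = 0.525) and that of Calb1 0.005 (edgeR adjusted p = 0.941). With the Drd2 level as a covariate, the log2 differences of Rorb, Cux1 and Calb1 between the groups were -0.45, -0.30 and -0.24. Both groups held libraries low and high in Drd2, so with slopes this small the covariate could move these differences only little. Without both control 2 and isolated 3, the difference of Calb1 was -0.12. The part of striatal RNA in the group differences was not tested. For Cux2 the slope was -0.06 (edgeR adjusted p = 0.495), and without control 3 it was -0.20 (edgeR adjusted p = 0.0263). Pou3f2 had -0.02 (edgeR adjusted p = 0.813) and Otof 0.02 (edgeR adjusted p = 0.896). The r of Otof with Drd2 was 0.015 over 6 libraries and -0.84 without control 2 and control 3, so it rested on those samples. For Calb1, r was -0.0022 over 6 libraries and -0.76 without the same pair, and its slope was -0.04 without control 2 (unadjusted p = 0.0240, adjusted p = 0.202 by edgeR).

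All 8 genes of cortical excitatory neurons had a negative slope on Drd2, beside 49.8% of all genes. Among them were Slc17a7, the vesicular glutamate transporter VGLUT1, at -0.06 (edgeR adjusted p = 0.0846), and Neurod6, a transcription factor of cortical excitatory neurons, at -0.12 (edgeR adjusted p = 0.0205). The median slope of these 8 genes was -0.06, beside -0.05 for the 9 upper-layer genes. For the 16 other upper-layer genes described below it was 0.01, with 12 slopes positive and 4 negative. The part of the excitatory genes in the slopes of Lmo4 and Rasgrf2 was not tested. The number of genes called for Drd2 was 256, and it ran from 50 without isolated 2 to 1114 without control 1.

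**Figure D4:**
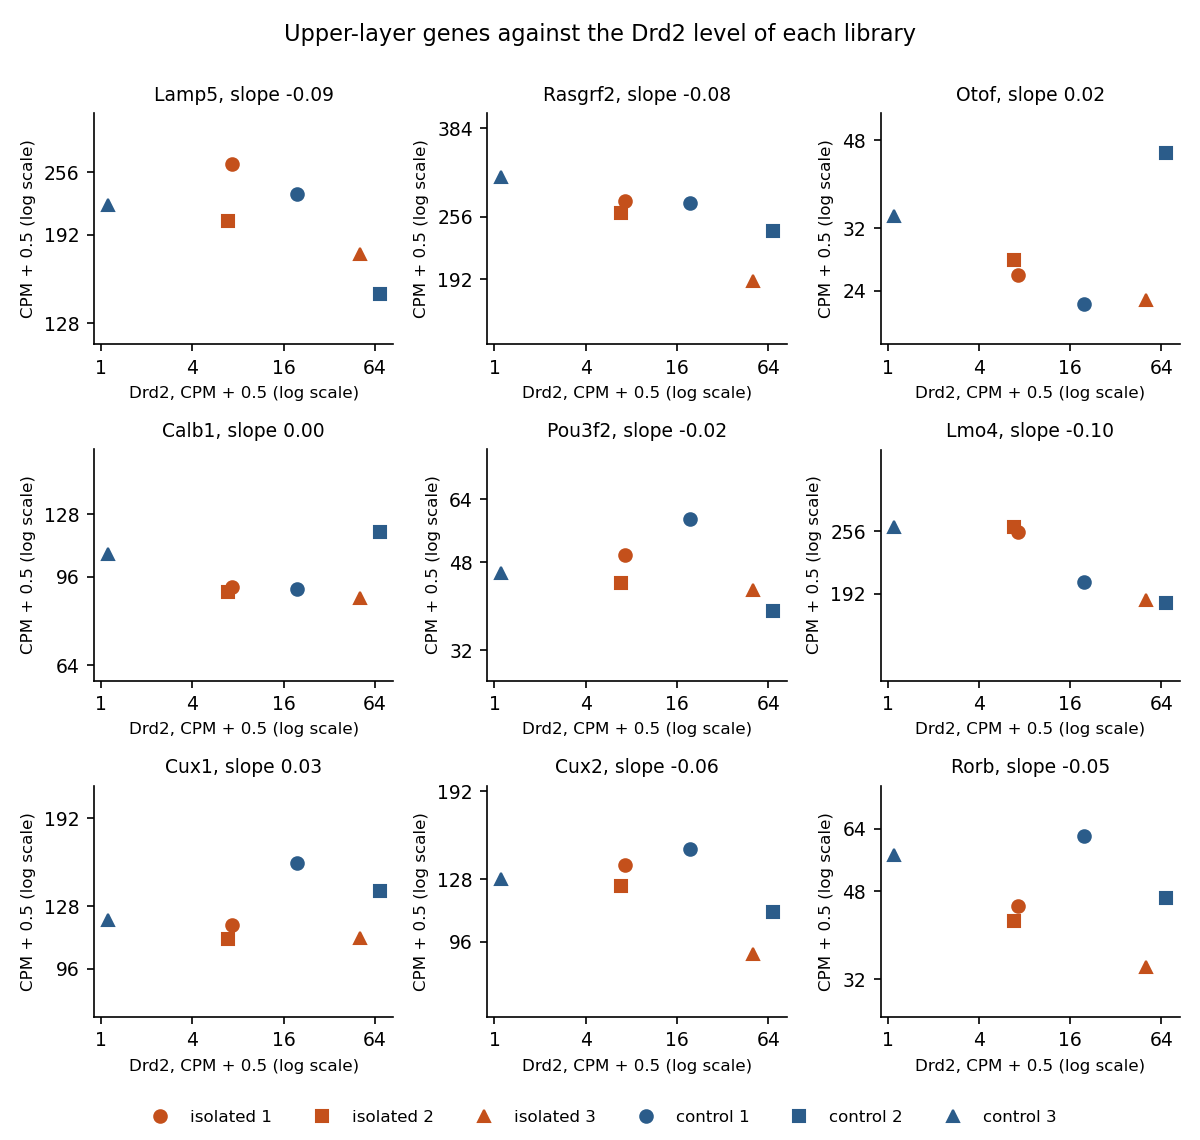
Level of each of the 9 genes against the level of Drd2 in the 6 libraries, both as CPM + 0.5 on log axes, coloured by group, with the fitted slope above each panel. Lmo4 and Rasgrf2 are lower where Drd2 is higher (r = -0.90 and -0.79), while Calb1 and Otof have r near 0 over all 6 libraries and -0.76 and -0.84 without control 2 and control 3.

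Similarity among the 9 genes was measured over 36 pairs and 6 libraries. Otof and Calb1 had the highest Pearson's r, 0.957 (exact permutation p = 0.0125, adjusted over the 36 pairs 0.422), with a rho of 0.714, and r was 0.292 without the 2 libraries farthest from the median, so it rested on those samples. No pair had an adjusted p under 0.05 by the exact permutation test, and 2 had an unadjusted p under 0.05. The likest genes among 11701 with a mean of at least 5 CPM were Cd63, Rcor2 and Gsap for Rorb (r = 0.992, 0.991 and 0.989). For Cux2 they were Zswim1, Hivep3 and Zfp398 (r = 0.995, 0.992 and 0.991), and for Otof they were Selenot, Wfs1 and Pcdh18 (r = 0.994, 0.992 and 0.991). These are the highest of all values compared over 6 libraries and are given as a description.

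A wider list of 16 other upper-layer genes was set beside the 9. Of these, 12 had lower means in isolated libraries, with a median log2 difference of -0.16, and their sum was 634 to 683 CPM in isolated and 709 to 766 CPM in control libraries. These sums did not overlap. A total of 3 had an unadjusted p under 0.05, all lower, where 2% of all genes were lower and 1.52% higher by that measure. Adamts2, named after its values were seen, was the one gene of the list with all isolated libraries above all controls, at 8.74, 9.68 and 9.64 CPM in isolated 1, 2 and 3 and 8.22, 8.33 and 7.75 CPM in control 1, 2 and 3 (unadjusted p = 0.0627, adjusted p = 0.999 by edgeR). Unc5d, a netrin receptor, gave 51.2, 53.8 and 51.8 CPM in isolated and 64.1, 66.5 and 61.7 CPM in control libraries, without overlap. Of the 16 genes it was the 1 with all isolated libraries below all controls, an order that 4.73% of all genes had. In 14 of the 16 the groups overlapped. Its log2 difference was -0.29 (SE 0.05), with an unadjusted p of 0.000789 and an adjusted p of 0.999 by edgeR. Nectin3, a cell adhesion molecule, averaged 14.2 ± 2.22 CPM in isolated and 17.6 ± 1.496 CPM in control libraries, and Plxnd1, a semaphorin receptor, 122 ± 10.6 CPM in isolated and 155 ± 31.97 CPM in control libraries (SD, n = 3 each).

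The deep-layer genes differed in direction, with 14 of 16 higher in mean in isolated libraries, beside 49.2% of all genes, and a median log2 difference of 0.17. Those with an unadjusted p under 0.05, a measure by which 1.52% of all genes were higher, were Crym, Etv1, Fezf2 and Npr3, with log2 differences of 0.44, 0.37, 0.50 and 0.49, and an adjusted p of 0.999 each by edgeR. On Drd2, 9 of the 16 deep-layer genes had a positive and 7 a negative slope. By that test 5 passed the threshold as rising and 0 as falling, beside 1.34% and 0.343% of all genes. No test of upper against deep layers was made, and the part of striatal RNA in the deep-layer means was not tested. Of the 8 cortical excitatory genes 3 had higher and 5 lower means, with Neurod6 at 0.27 and Neurod1 at -0.34 in log2 (unadjusted p = 0.190 and 0.211, adjusted p = 0.999 each by edgeR). The striatal genes were lower in mean in 15 of 15, beside 50.8% of all genes. Drd2 is 1 of the 15, and the other 14 passed the threshold as rising with it, so the list moved together. Its sums were 969, 947.5 and 3753 CPM in isolated 1, 2 and 3. In control 1, 2 and 3 they were 1782, 5161 and 693 CPM, so the groups overlapped. Scn4b had a log2 difference of -0.44 (unadjusted p = 0.496, adjusted p = 0.999 by edgeR).

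Markers of other cell types were summed in the same way. The 8 oligodendrocyte genes were higher in mean in 8 of 8, beside 49.2% of all genes. Their sums were 3737, 4036 and 6873 CPM in isolated 1, 2 and 3. In control 1, 2 and 3 they were 4806, 3422 and 2881 CPM, so isolated 3 stood apart and the groups overlapped. Mog and Cldn11 had log2 differences of 0.48 and 0.48 (unadjusted p = 0.0827 and 0.115, adjusted p = 0.999 each by edgeR). Of the astrocyte genes 7 of 8 were lower in mean, beside 50.8% of all genes, with Aqp4 at -0.30 (unadjusted p = 0.0281, adjusted p = 0.999 by edgeR). Microglial genes were also lower in mean in 7 of 8. In 3 of the 8 all isolated libraries lay below all controls, beside 4.73% of all genes. Their sums were 317.4 to 335.4 CPM in isolated and 334.9 to 363.1 CPM in control libraries, which overlapped. Cx3cr1 was at -0.19 (unadjusted p = 0.0386, adjusted p = 0.999 by edgeR). Interneuron genes were higher in mean in 5 of 12 and lower in 7, with Adarb2 at -0.14 and Ndnf at -0.30. The part of these shifts in the upper-layer differences was not tested.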

How the data were processed

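Per the labels' protocols, total RNA was read on the BGISEQ-500 platform in 50-base reads. The submitters' processing notes name HISAT, Bowtie2, RSEM and mm10 but no versions. For each library the authors deposited a table that gives every gene an expected count, an FPKM and a transcript length. An expected count shares out reads that match several genes. The strand setting of the counting was not given in the sources used here. A further table with 6 columns of codes that match no label was not used here.

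Expected counts were rounded, filtered with filterByExpr (minimum count 10, minimum total 15, leaving 15169 genes) and compared by the quasi-likelihood F-test of edgeR 4.0.16 (R 4.3.3), with TMM scaling and no covariate. Benjamini-Hochberg adjustment ran over the whole table. The Drd2 slope added the log2(CPM + 0.5) of Drd2 to the group term, and correlations used exact permutation over 720 orders of 6 libraries. FPKM was tested with limma 3.58.1 after adding 1, and DESeq2 1.42.0, other scalings, covariates and libraries left out were alternatives. Intervals cover these libraries only. The labels give no batch.

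The members and lists were chosen with earlier results of these data known. All 9 members are named, and of each other list those with an unadjusted p under 0.05, at most 4, or the 2 with the smallest p. For the striatal list, 1 gene named by this rule is not reported here.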

Additional observations from a re-analysis of the deposited data

How the results depend on the processing

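No member passed an adjusted p of 0.05 between the groups in any of 17 alternatives. DESeq2 called 1 gene higher, Fkbp5 (log2 0.57, adjusted p = 0.0068 by DESeq2), where edgeR called 0. Against 535 genes at an unadjusted p under 0.05, DESeq2 gave 306, Drd2 as a covariate 939, the striatal list as a covariate 901, scaling to the cortical excitatory list 146, and leaving out 1 library 369 to 860. Members lower at that level, 3 in all libraries, numbered 1 under the excitatory scaling and 1 to 4 with 1 library left out. Genes with a Drd2 slope, 256 in all libraries, numbered 601 with the striatal list and 50 to 1114 with 1 library left out. Members past that threshold, 1 in all libraries, numbered 2 with the striatal list, 0 without the group term and 0 to 3 with 1 library left out.

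With 1 library left out, log2 differences spanned 0 for Lamp5 (-0.069 to 0.24), Cux2 (-0.26 to 0.023) and Pou3f2 (-0.20 to 0.11). Drd2 slopes spanned 0 for Otof (-0.12 to 0.079), Calb1 (-0.042 to 0.034), Pou3f2 (-0.12 to 0.037) and Cux1 (-0.033 to 0.053). The r of Otof was -0.84 without control 2 and control 3. The causes were not tested.

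The fit with a replicate block gave 331 genes at an unadjusted p under 0.05. Deviations of same-numbered libraries correlated at 0.0568, -0.439 and -0.708, so the numbers were not taken to pair the libraries. For the 6 members whose 95% interval spans 0, neither direction was resolved with 3 libraries per group.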

Other observations

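Relatives and partners of the 9 genes were balanced, with 8 of 16 higher and 8 lower in mean in isolated libraries. Lmo1, a LIM-only relative of Lmo4, gave 5.97, 5.49 and 5.22 CPM in isolated 1, 2 and 3 and 4.49, 4.14 and 3.68 CPM in control 1, 2 and 3. All isolated libraries lay above all controls, with a log2 difference of 0.44 (SE 0.13, unadjusted p = 0.0116, adjusted p = 0.999 by edgeR), where 4.12% of all genes had that order. Of the 16, 1 passed the threshold for Drd2 as falling and 1 as rising, beside 0.343% and 1.34% of all genes. Both are named after their values were seen. Ldb2, which encodes a LIM-binding adaptor, had a slope of -0.12 (edgeR adjusted p = 0.0108), and Pou3f4, a relative of Pou3f2 that is expressed in the developing striatum, had 0.31 (edgeR adjusted p = 0.0175).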
